A study of Mus musculus with 4 samples.

Results

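Expression of 8 transcription factor genes known to specify and maintain the hormone cells of the pancreatic islet was followed across cell classes and genotypes: Mafa, Pdx1, Nkx6-1, Nkx2-2, Neurod1, Pax6, Isl1 and Foxa2. They were taken by gene symbol, by a rule that uses no measured value, though the list was chosen with earlier results of these data known. They are 8 of the 32285 genes counted. The mice were C57BL/6, either Malat1-/- (called Malat1-null), which lack the long nuclear RNA Malat1, or wild type. Islets freed with collagenase were cultured, and single-cell suspensions of them were taken to droplet-based 3′ RNA sequencing. Both libraries are labelled as treated with the dioxin TCDD, a ligand of the aryl hydrocarbon receptor. The series has 4 samples, and the 2 compared here are the Malat1-null library with TCDD and the wild-type library with TCDD. Libraries from islets given the solvent DMSO were not analysed here, and every value below is from TCDD-treated islets. Dose and exposure time, the ages and numbers of the mice and how the null allele was made are not given in the labels. The labels name the cell type as beta cell, but the suspensions were of whole islets and held 10 classes named from marker genes. There is 1 library per genotype, so no test of genotype is possible; all intervals are 95%, cover counting error only, and leave out differences between mice, dispersions and runs.

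Islet hormone cells arise from common progenitors and keep their identity through a small set of DNA-binding proteins. Foxa2, a forkhead factor that opens chromatin in endoderm, and Pdx1, a homeodomain factor needed for the pancreas to form, act early. Neurod1, a basic helix-loop-helix protein, and the homeodomain proteins Nkx2-2, Pax6 and Isl1 are shared by several hormone lineages. Nkx6-1 and Pdx1 maintain beta cells against other islet fates, and Mafa, a basic leucine zipper factor that appears late, marks mature beta cells and drives insulin, glucose transport and secretion genes. In dispersed or stressed islets Mafa, Pdx1 and Nkx6-1 are commonly read as markers of beta cell identity.

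The insulin gene promoter is the textbook site at which these proteins meet: Neurod1 binds E boxes (CANNTG), and Pdx1 and Isl1, among other homeodomain proteins, bind A boxes with a TAAT core. The stretch upstream of the RefSeq start of Ins1 is shown for that reason, beside those of the members Isl1 and Pax6. These members were picked because the first stretch listed for each holds 2 matches to the same TAAT letters. Capitals mark CANNTG and TAAT, the second on either strand (ATTA on the strand shown); all are written 5′ to 3′ in the direction of the gene, from RefSeq on GRCm38.p6.
Ins1 (chr19:52264047-52264296, plus strand): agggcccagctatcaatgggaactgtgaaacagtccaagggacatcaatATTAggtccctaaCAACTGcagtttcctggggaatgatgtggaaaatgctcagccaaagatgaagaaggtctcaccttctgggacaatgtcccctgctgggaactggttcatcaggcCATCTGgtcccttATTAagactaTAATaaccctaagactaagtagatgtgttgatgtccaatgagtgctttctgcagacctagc
Isl1 (chr13:116309690-116309938, minus strand): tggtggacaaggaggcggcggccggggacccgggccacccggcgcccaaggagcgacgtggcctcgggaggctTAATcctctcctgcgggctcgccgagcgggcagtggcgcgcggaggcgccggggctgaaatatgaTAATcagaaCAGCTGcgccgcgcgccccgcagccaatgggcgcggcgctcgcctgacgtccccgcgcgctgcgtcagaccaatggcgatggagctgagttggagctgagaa
Pax6 (chr2:105668646-105668895, plus strand): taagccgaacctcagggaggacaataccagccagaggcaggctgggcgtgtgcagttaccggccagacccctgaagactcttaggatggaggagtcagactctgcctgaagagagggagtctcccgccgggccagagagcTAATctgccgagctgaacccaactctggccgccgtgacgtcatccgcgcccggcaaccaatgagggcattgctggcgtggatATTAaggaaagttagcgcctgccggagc
Ins1 has 2 matches to CANNTG, 1 of them the letters CATCTG, and 3 to TAAT. Isl1 has 1 match to CANNTG and 2 to TAAT, and Pax6 has 0 and 2. Such letters are common: of 32851 promoter windows of 250 bases, 66.2% hold CANNTG, 54.9% hold TAAT and 14.4% hold CATCTG, so a match is a description and not a binding site. The promoter table held windows for 7 of the 8 members, and Mafa is named only. In the first window listed for each of those 7, 4 hold TAAT (Nkx2-2, Pax6, Isl1 and Foxa2) and Pdx1, Nkx6-1 and Neurod1 do not. In the same windows 4 hold CANNTG (Pdx1, Nkx2-2, Neurod1 and Isl1). Pax6 and Foxa2 have further windows, of which 1 for each also holds CANNTG, and that of Foxa2 holds 2 matches to TAAT.

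The Malat1-null library held 134950186 UMIs (unique molecules) and the wild-type library 81872519. Barcodes with at least 1000 UMIs numbered 3198 in Malat1-null, with a median of 34038 UMIs, and 2166 in wild type, with a median of 26116 UMIs; the libraries shared 1 such barcode. Malat1 checked the labels: in beta-like cells it stood at 0.287 CPM (UMIs scaled to a common library size) in Malat1-null, from 27 UMIs, against 9060 CPM in wild type, from 570941 UMIs. Clusters were named from marker genes that include none of the 8 members. Beta-like cells were 61.8% of Malat1-null barcodes (1976 cells) and 44.0% of wild-type barcodes (952 cells). The other hormone cells were few: 72 alpha-like (glucagon), 41 delta-like (somatostatin) and 27 PP-like (pancreatic polypeptide) cells in Malat1-null, against 30, 19 and 25 in wild type. The 2 libraries filled the beta-like clusters unevenly: a cluster led by Spp1, Ctrb1 and Fos held 3.29% of Malat1-null beta-like cells and 46.0% of wild-type ones, and a cluster led by Ppy, Tmsb15b2 and Slc2a2 held 26.6% and 4.41%.

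The members differed in how far they reached over the 4 hormone classes. These levels are a description, since cell classes come from the same cells. They are CPM of UMIs summed over the cells of a class in a library, read from transcript 3′ ends and not per length, so they compare a gene with itself and not with another gene. Insulin and other hormones fill much of a hormone cell's library, and so each order was also read with hormone, mitochondrial and Malat1 UMIs left out of the library size.

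Mafa (mm10 chromosome 15, 75745490 to 75748228, minus strand) was far higher in beta-like cells than in the other hormone classes as named here. It stood at 286.6 CPM in Malat1-null beta-like cells and 143.1 CPM in wild-type ones. Cells of the other hormone classes were kept only with their own hormone leading and Ins2 under 5% of UMIs. That rule removed 22 of 63 delta-like cells in Malat1-null and 8 of 27 in wild type. Of PP-like cells it removed 3 of 30 and 7 of 32, and of alpha-like cells 4 of 76 and 1 of 31. Clusters with insulin beside another hormone stayed unnamed, so their Mafa is not counted here. Alpha-like cells held 3 Mafa UMIs in Malat1-null and 0 in wild type, delta-like cells 3 and 0, and PP-like cells 1 and 1. None of these counts was above what free RNA would give. Free RNA is RNA from broken cells that enters every droplet. It was measured in the barcodes with 1 to 100 UMIs, where Malat1-null droplets held 2.72 Mafa UMIs for each 10000 insulin UMIs and wild-type droplets 3.07. The level is scaled by insulin UMIs, so it cannot tell whether beta-like cells, which make insulin, express a member. In wild type they held 9017 Mafa UMIs, below the 9410 that this level would give. In wild-type alpha-like cells 0 of 30 cells had a Mafa UMI, which allows a share of cells with a UMI of up to 10.0% (3 counts in 30 cells) and sets no limit on cells that express the gene.

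Pdx1 (chromosome 5, 147269959 to 147275848, plus strand), which is known to act on the somatostatin gene as well as on insulin, was highest in beta-like and delta-like cells. Its level was 50.3 CPM in Malat1-null and 38.1 CPM in wild-type beta-like cells, and 51.4 CPM and 64.7 CPM in delta-like cells. With hormone UMIs left out of the library size, beta-like cells came first in both libraries, so the order of these 2 classes depends on the scale. PP-like cells had 7.34 CPM in Malat1-null and 6.72 CPM in wild type, and ductal-like cells 7.21 and 6.98 CPM. The ductal-like groups, here and below, were not alike in their markers. Acinar markers summed to 13686 CPM in the 15 Malat1-null cells and 445.3 CPM in the 136 wild-type cells, and ductal markers to 2760 and 9973 CPM. The annotation places Plut, a non-coding RNA gene, across Pdx1 on the opposite strand, and whether the counting used strand is not given in the sources used here. Ductal-like cells held 2 Pdx1 UMIs in Malat1-null and 35 in wild type, both above the free RNA level. Alpha-like cells held 4 UMIs in Malat1-null, above that level, and 0 in wild type.

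Nkx6-1 (chromosome 5, 101658139 to 101664996, minus strand) was highest in beta-like cells on both scales, at 110.4 CPM in Malat1-null and 103.6 CPM in wild type. PP-like cells came next with 51.4 CPM in Malat1-null (56 UMIs) and 62.7 CPM in wild type (56 UMIs). Alpha-like cells stood at 14.4 and 18.3 CPM, above the free RNA level in both libraries. Delta-like cells held 25 UMIs in 9 of 41 Malat1-null cells and 1 UMI in 1 of 19 wild-type cells, a ratio of 14.0 (2.29 to 575). This gene was under the minimum of 50 UMIs for a call in that class, and both counts come from few cells.

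Nkx2-2 (chromosome 2, 147177546 to 147194243, minus strand), a repressor of alternative islet fates, was present in all 4 hormone classes. Beta-like cells had 60.9 CPM in Malat1-null and 44.7 CPM in wild type, alpha-like cells 58.4 and 69.1 CPM, PP-like cells 34.0 and 42.6 CPM, and delta-like cells 30.4 and 39.6 CPM. In wild type the intervals of beta-like, PP-like and delta-like cells overlapped. Without hormone UMIs in the library size beta-like cells ranked first in both libraries. Wild-type ductal-like cells held 48 Nkx2-2 UMIs (9.57 CPM), against 2 UMIs (7.21 CPM) in the few Malat1-null ones.

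Neurod1 (chromosome 2, 79452521 to 79456751, minus strand) led in alpha-like cells, with 637.7 CPM in Malat1-null and 440.9 CPM in wild type. Beta-like cells followed with 243.4 and 217.9 CPM, then delta-like cells with 195.2 and 183.6 CPM and PP-like cells with 166.1 and 131.1 CPM. Intervals of beta-like and delta-like cells overlapped in wild type. Leaving hormone UMIs out kept alpha-like cells first, but in wild type by little: 592.5 CPM against 581.0 CPM in beta-like cells.

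Pax6 (chromosome 2, 105668900 to 105697364, plus strand), which is known to act on the glucagon, insulin and somatostatin genes, was present in all 4 hormone classes. Delta-like cells had 273.6 CPM in Malat1-null and 229.5 CPM in wild type, alpha-like cells 184.6 and 151.3 CPM, beta-like cells 165.0 and 144.7 CPM, and PP-like cells 163.4 and 169.2 CPM. In wild type the intervals of classes next to each other in level overlapped, and in Malat1-null delta-like cells lay clear of the rest. With hormone UMIs left out, beta-like cells moved to the top in both libraries, so the order depends on the scale.

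Isl1 (chromosome 13, 116298281 to 116309689, minus strand), a LIM-homeodomain factor, was highest in delta-like cells. Delta-like cells held 519.1 CPM in Malat1-null and 498.6 CPM in wild type, from 444 and 239 UMIs. Alpha-like cells had 204.9 and 164.4 CPM, PP-like cells 136.7 and 169.2 CPM, and beta-like cells 86.2 and 88.2 CPM. Delta-like cells stayed first on both scales, with 726.8 and 719.7 CPM once hormone UMIs were left out.

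Foxa2 (chromosome 2, 148042877 to 148046969, minus strand) was found in all 4 hormone classes and in ductal-like cells. Alpha-like cells had 60.1 CPM in Malat1-null and 52.2 CPM in wild type, delta-like cells 50.3 and 73.0 CPM, PP-like cells 38.5 and 39.2 CPM, and beta-like cells 32.8 and 34.5 CPM. With hormone UMIs left out, the order changed: beta-like cells came first in Malat1-null at 87.6 CPM, ahead of alpha-like cells at 83.2 CPM, while in wild type delta-like cells came first at 105.4 CPM, beta-like cells stood at 91.9 CPM and alpha-like cells came last of the 4 at 70.1 CPM. On the first scale ductal-like cells had 25.2 CPM (7 UMIs) in Malat1-null and 23.7 CPM (119 UMIs) in wild type. The free RNA level would give 0.0448 and 0.262 UMIs there.

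**Figure D1:**
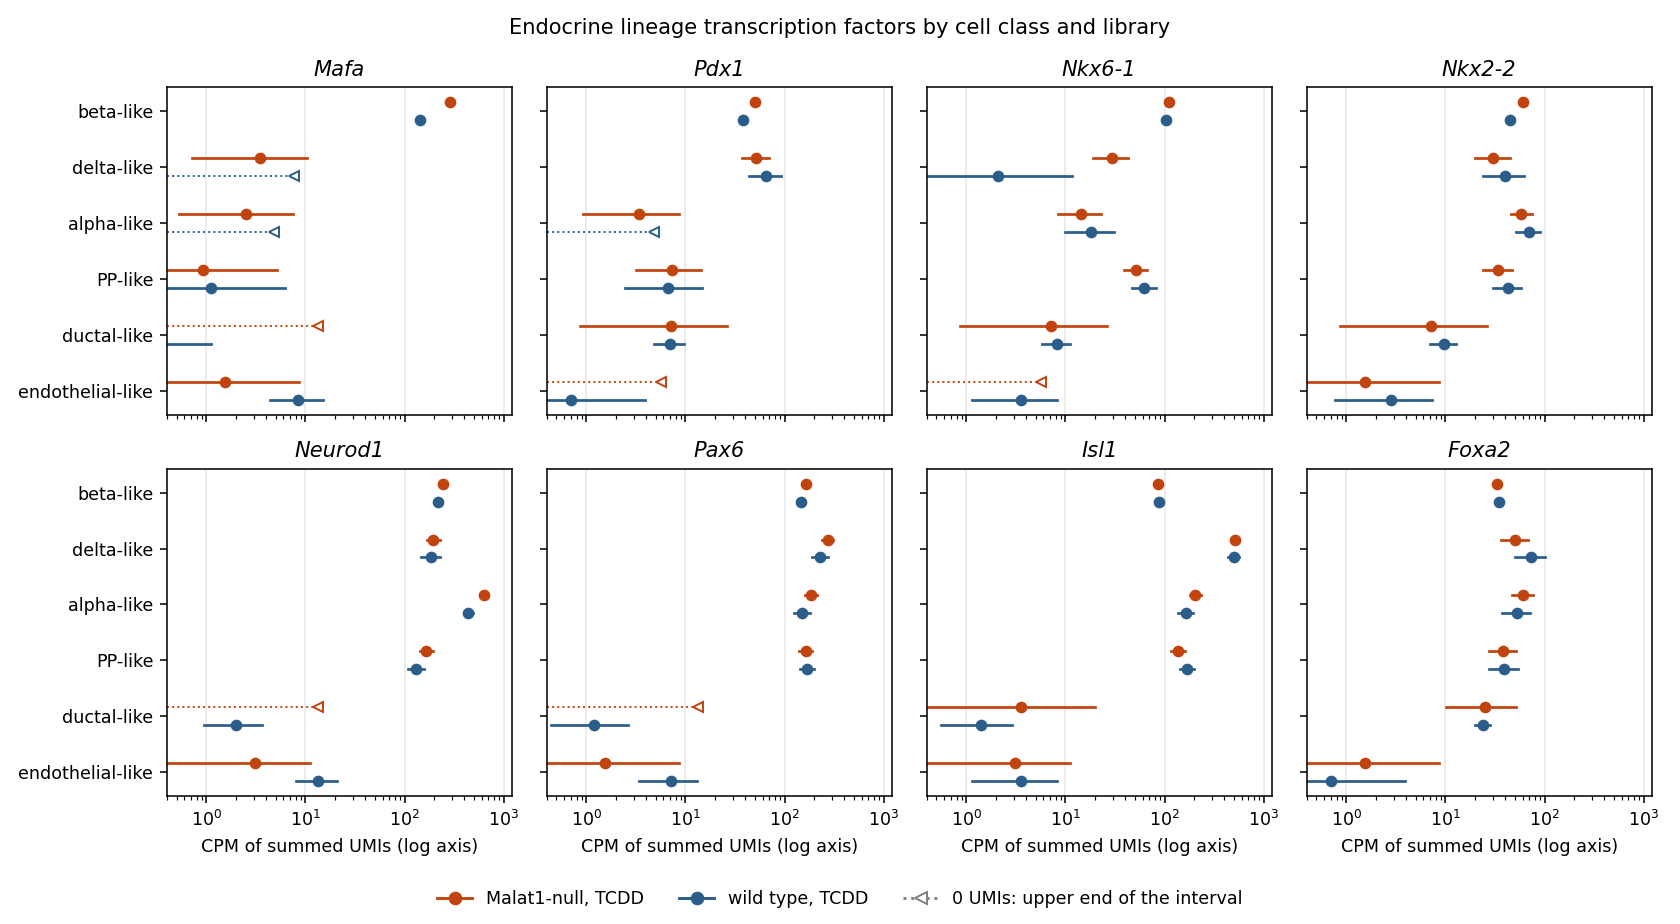
Level of each factor in 6 cell classes, as CPM of summed UMIs on a log axis, with 95% counting intervals; Malat1-null points are drawn above wild-type points, and open triangles mark the upper end of the interval where no UMI was counted. In beta-like cells Mafa lies at 286.6 CPM (Malat1-null) and 143.1 CPM (wild type), and below 4 CPM in the other hormone classes, while Isl1 is highest in delta-like cells and Neurod1 in alpha-like cells.

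Outside the hormone and ductal classes the members had few UMIs, so a count above the free RNA level does not show that such cells express the member. As for Mafa, above means that the whole counting interval lay above that level, so a count not called above can still exceed it. Endothelial-like cells held between 0 and 2 UMIs per member in Malat1-null and between 1 and 19 in wild type. None of the 8 members in Malat1-null was above the free RNA level there, and 1 of 8 in wild type was, Neurod1 with 19 UMIs against 7.18 from free RNA. Mesenchymal-like cells held at most 3 UMIs of any member in either library, and Isl1 was the 1 member above the free RNA level there, in both. B-cell-like barcodes held up to 33 UMIs of a member in Malat1-null, with Nkx6-1 and Foxa2 above that level, and up to 7 in wild type, with Mafa above it. T- or NK-like barcodes held up to 8 UMIs in Malat1-null, with 0 of 8 above that level, and up to 5 in wild type, with 3 of 8 above it (Mafa, Nkx6-1 and Neurod1). Acinar-like barcodes held up to 40 and 16, with 4 of 8 and 3 of 8 above it. Insulin UMIs in Malat1-null were 75370 in acinar-like and 96588 in B-cell-like barcodes, against 25534 and 2634 in wild type, so member levels were not compared between genotypes in those classes.

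**Figure D2:**
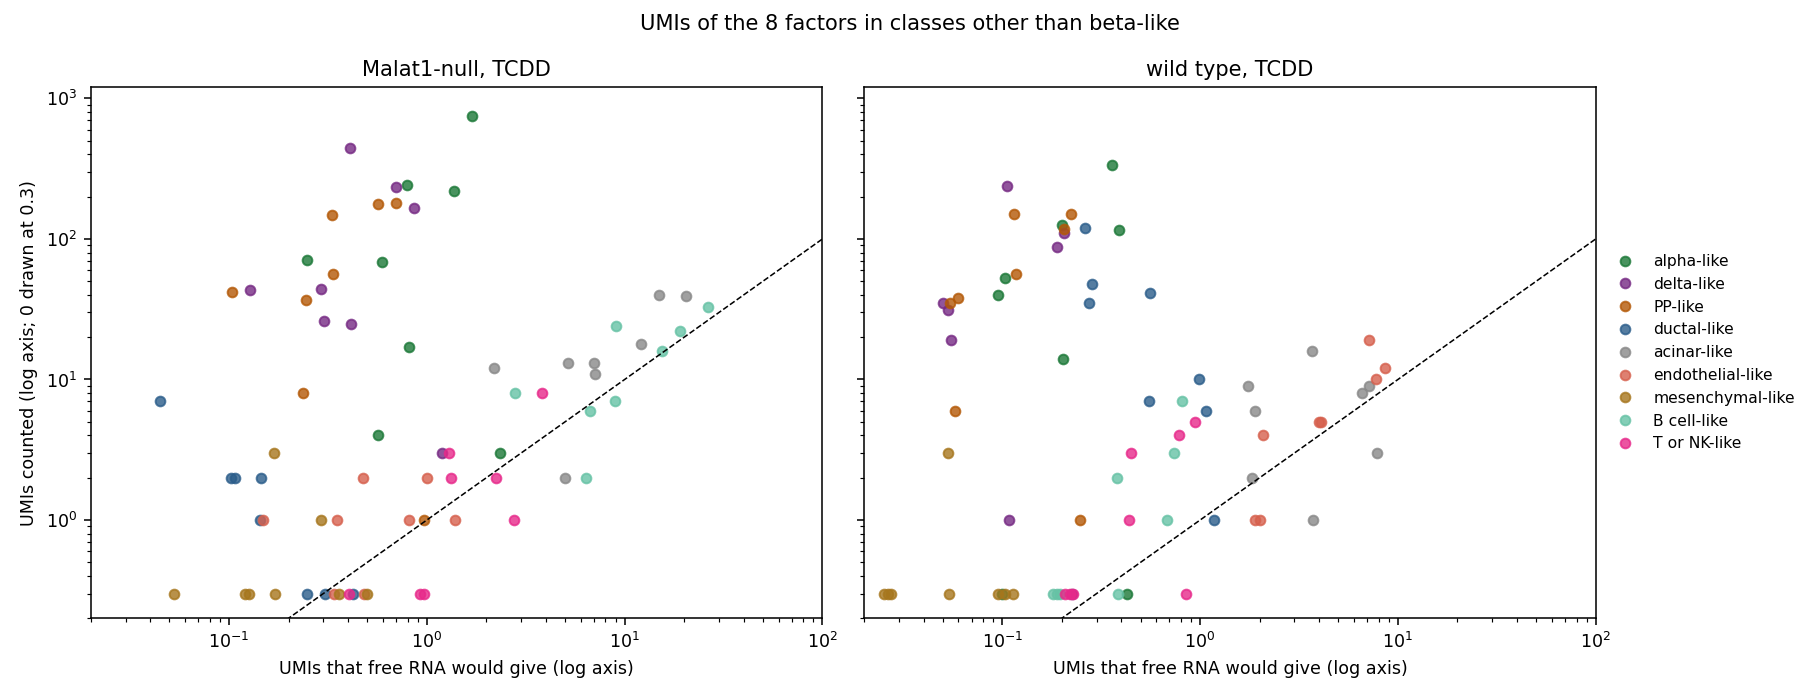
UMIs counted for each factor in 9 classes other than beta-like (vertical, log axis) against the UMIs that free RNA would give from the insulin UMIs of the class (horizontal, log axis); each point is 1 factor in 1 class, the dashed line marks equality, and counts of 0 are drawn at 0.3. Most points of the alpha-like, delta-like and PP-like classes lie far above the line, and those of immune and endothelial classes reach no higher than 33 UMIs.

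In beta-like cells Mafa was the member that differed most between genotypes. It had 26947 UMIs in Malat1-null (286.6 CPM, interval 283.2 to 290.0) and 9017 UMIs in wild type (143.1 CPM, 140.1 to 146.1), a ratio of 2.00 (1.96 to 2.05). A gene was called when its ratio was over 1.5-fold and its whole interval over 1.2-fold, among genes with at least 5 CPM in a library and 50 UMIs over both. By this rule 1 of the 8 members, Mafa, was higher in Malat1-null and 0 were lower. Of the 8566 genes that passed the minimums, 176 were called higher (2.05%) and 216 lower (2.52%), 4.58% in either direction. Mafa ranked number 41 of 8566 by ratio. Under total-count scaling in place of trimmed-mean (TMM) scaling, 76 genes were called higher and 424 lower, and the Mafa log2 ratio was 0.82 in place of 1.00. That scaling moved the median log2 ratio of all genes to -0.15, where TMM scaling gave 0.03.

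Nkx2-2 and Pdx1 came next, and neither met the rule. Nkx2-2 stood at 60.9 CPM in Malat1-null (5723 UMIs) and 44.7 CPM in wild type (2815 UMIs), a ratio of 1.36 (1.30 to 1.43). Pdx1 stood at 50.3 CPM (4725 UMIs) and 38.1 CPM (2398 UMIs), a ratio of 1.32 (1.26 to 1.39). Both ratios lay above most genes, at rank 374 and rank 481 of 8566.

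Smaller ratios were found for Pax6, Neurod1 and Nkx6-1. Pax6 had 165.0 CPM in Malat1-null (15517 UMIs) and 144.7 CPM in wild type (9122 UMIs), a ratio of 1.14 (1.11 to 1.17). Neurod1 had 243.4 CPM (22889 UMIs) and 217.9 CPM (13731 UMIs), a ratio of 1.12 (1.09 to 1.14), and under total-count scaling its log2 ratio changed sign to -0.021. Nkx6-1 had 110.4 CPM (10377 UMIs) and 103.6 CPM (6529 UMIs), a ratio of 1.07 (1.03 to 1.10), and under total-count scaling its log2 ratio changed sign to -0.089.

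Isl1 and Foxa2 had counting intervals that included a ratio of 1 under TMM scaling. Isl1 had 86.2 CPM in Malat1-null (8105 UMIs) and 88.2 CPM in wild type (5559 UMIs), a ratio of 0.977 (0.944 to 1.01). Foxa2 had 32.8 CPM (3081 UMIs) and 34.5 CPM (2172 UMIs), a ratio of 0.951 (0.900 to 1.005). Over the 8 members the median log2 ratio was 0.17, beside 0.03 over all genes. The counting interval lay above 1 for 6 of 8 members and for 34.7% of all genes, and below 1 for 0 of 8 members and 25.1% of all genes. This tally depends on the scaling. Under total-count scaling the interval lay above 1 for 3 of 8 members (Mafa, Pdx1 and Nkx2-2) and below 1 for 3 of 8, namely Nkx6-1 (0.911 to 0.970), Isl1 (0.833 to 0.892) and Foxa2 (0.794 to 0.887). The Foxa2 interval also lay below 1 under 4 other alternatives, with upper ends of 0.993 to 0.9997.

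**Figure D3:**
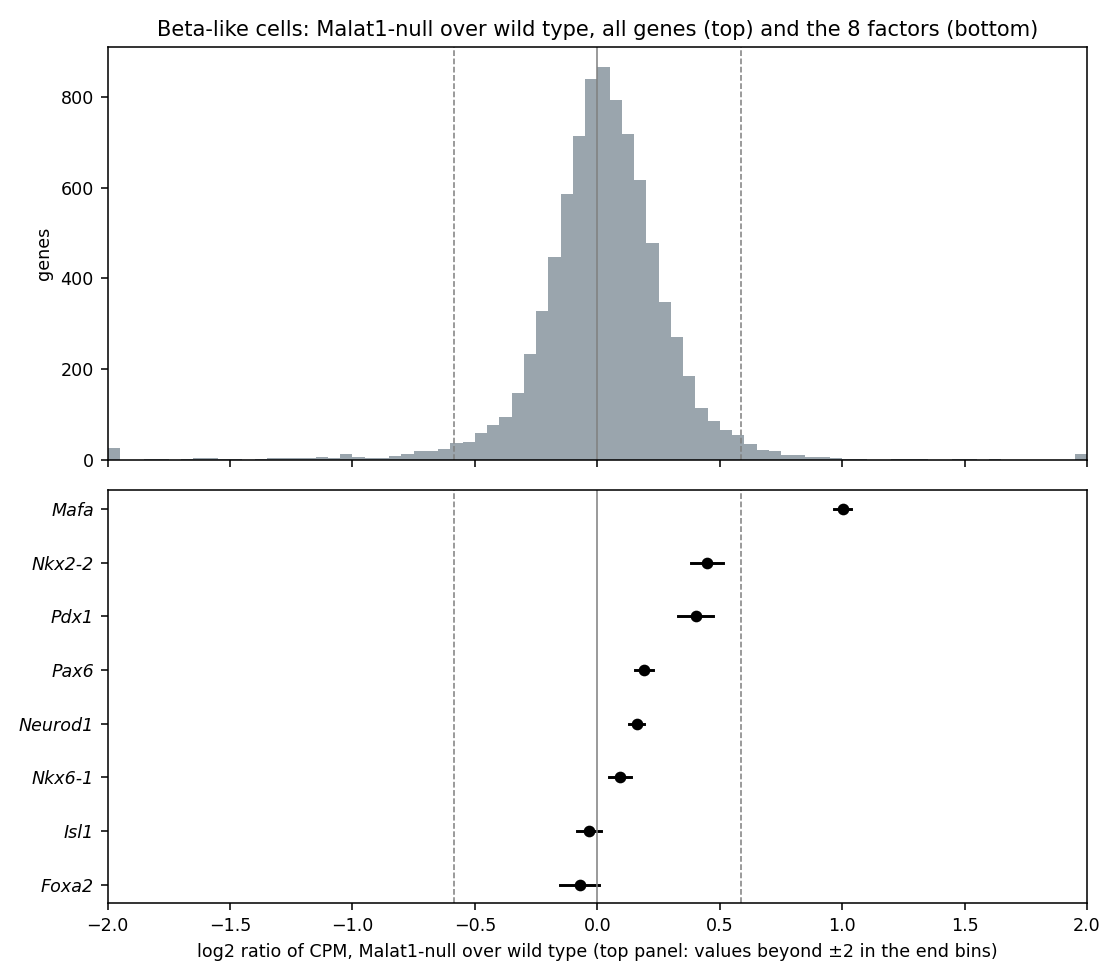
Log2 ratios of CPM, Malat1-null over wild type, in beta-like cells: a histogram of the 8566 genes that passed the minimums (top; vertical axis, number of genes) and the 8 factors with 95% counting intervals (bottom). Dashed lines mark 1.5-fold; Mafa at 1.00 lies beyond them, and the other 7 factors lie between -0.07 and 0.45, with the signs of Neurod1 and Nkx6-1 turning under total-count scaling.

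The share of beta-like cells with a Mafa UMI also differed once depth was made equal. Each cell was thinned to 10000 UMIs, which left 1793 Malat1-null and 905 wild-type beta-like cells and removed 183 and 47 shallower ones. Mafa was then found in 76.0% of Malat1-null cells (74.0 to 78.0%) and 53.7% of wild-type cells (50.4 to 57.0%). Without thinning these shares were 88.7% and 84.3%, at medians of 46493.5 and 60691 UMIs per cell. Thinned endothelial-like cells, which should lack the gene, had a Mafa UMI in 0% in Malat1-null (0 to 14.2%) and 3.45% in wild type (0.420 to 11.9%), at unthinned medians of 15352 and 11328.5 UMIs.

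Pdx1 and Nkx2-2 also differed in thinned shares. Pdx1 was found in 36.5% of Malat1-null cells (34.2 to 38.8%) and 28.6% of wild-type cells (25.7 to 31.7%), and Nkx2-2 in 44.3% (42.0 to 46.6%) and 34.6% (31.5 to 37.8%). Shares of the other members overlapped in their intervals. Thinned shares were computed for the members only, so how common such gaps are among all genes is not known. Nkx6-1 was in 59.5% and 59.4% of cells, Pax6 in 75.9% and 76.0%, and Neurod1 in 85.3% and 84.1%. Isl1 was in 52.5% and 55.8%, and Foxa2 in 25.9% and 29.6%. A thinned beta-like cell held a UMI of 4.56 of the 8 members on average in Malat1-null and of 4.22 in wild type.

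**Figure D4:**
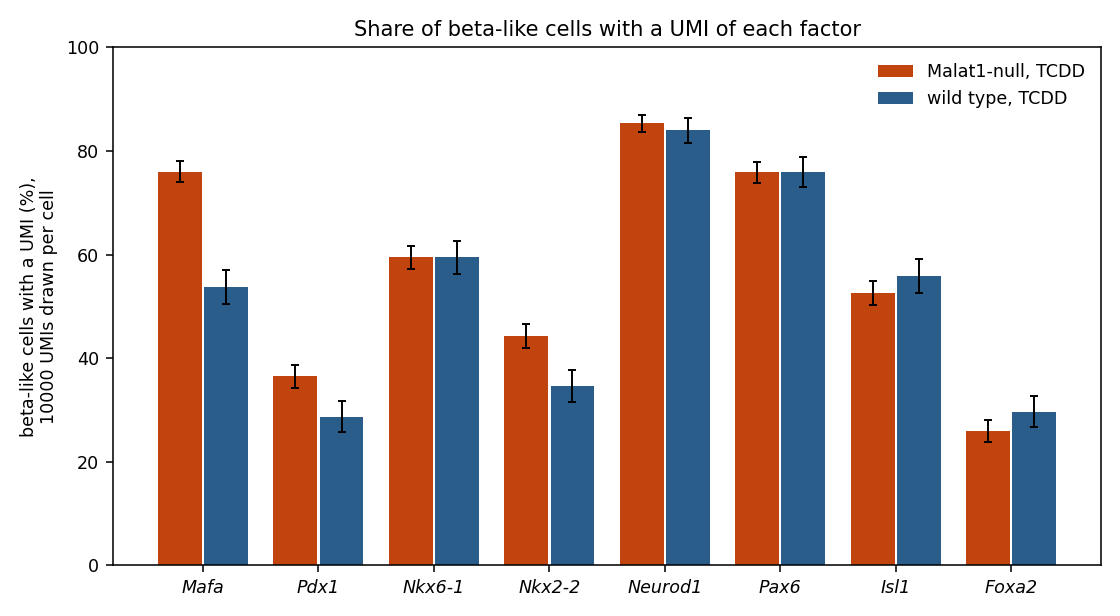
Share of beta-like cells with at least 1 UMI of each factor (percent), after 10000 UMIs were drawn from each cell; bars are the 1793 Malat1-null and 905 wild-type cells, with exact 95% binomial intervals. Mafa (76.0% and 53.7%), Pdx1 (36.5% and 28.6%) and Nkx2-2 (44.3% and 34.6%) have intervals that do not overlap. Thinned shares of all genes were not computed.

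Levels per cell showed how unevenly Mafa was spread. Among the deep beta-like cells used for thinning, the quartiles of Mafa were 80.5, 188.3 and 374.3 CPM in Malat1-null and 25.03, 66.2 and 167.2 CPM in wild type. The 90th percentile of cells was 618.5 CPM in Malat1-null and 431.5 CPM in wild type. Cell-to-cell variation beyond counting error, as a coefficient of variation, was 99.7% in Malat1-null and 162.7% in wild type for Mafa. For Nkx6-1 it was 53.8% and 113.3%, and for Pdx1 89.0% and 151.9%. Neurod1 (49.4% and 57.4%) and Pax6 (43.7% and 48.9%) varied less, though in Malat1-null Neurod1 was close to Nkx6-1. Nkx2-2 had 51.1% and 54.1%, Isl1 59.9% and 69.0%, and Foxa2 72.5% and 73.2%. Pearson correlations of the members from cell to cell, over the 28 pairs, lay between 0.06 and 0.29 in Malat1-null. In wild type they lay between -0.01 and 0.31, over cells that share a library and differ in depth. These values rest on few UMIs per cell, with medians from 1 (Foxa2) to 11 (Neurod1) in Malat1-null. In wild type the medians ran from 2 (Foxa2) to 13 (Neurod1). Counting error lowers such correlations, so they do not show how closely the members are related.

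The Mafa difference was present within beta-like clusters. In the 8 beta-like clusters with at least 20 cells of each library, Mafa was higher in Malat1-null in 8 of 8, with log2 ratios from 0.44 to 1.67 and counting intervals above 1 in 8. In the cluster led by Dst, Rnase4 and Peg3 (433 Malat1-null and 172 wild-type cells), Mafa stood at 341.8 CPM in Malat1-null and 199.4 CPM in wild type. In the Spp1, Ctrb1 and Fos cluster (65 and 438 cells) it stood at 179.6 and 132.2 CPM, and in the Ppy, Tmsb15b2 and Slc2a2 cluster (525 and 42 cells) at 271.7 and 99.5 CPM. Mafa was lowest in both libraries in the cluster led by Gcg, Ttr and Hspa5 (54 and 21 cells), at 64.8 and 37.0 CPM.

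Other members were less even over these clusters. Pdx1, Nkx2-2, Pax6 and Nkx6-1 had a ratio above 1 in 7 of 8, Neurod1 and Isl1 in 6 of 8, and Foxa2 in 5 of 8. The exception for Nkx6-1 was the cluster led by the heat shock genes Hspa1a, Hspa1b and Hspb1 (88 and 147 cells), where it stood at 113.5 CPM in Malat1-null and 187.3 CPM in wild type. In that cluster Pdx1 was at its highest in both libraries, at 101.8 and 60.4 CPM, and Mafa stood at 311.5 and 170.1 CPM. The shallow cluster led by Igkc and mitochondrial genes (177 and 31 cells, median depth 1864 UMIs, 33.9% mitochondrial UMIs) held 7 wild-type Mafa UMIs. Without that cluster the log2 ratio of Mafa over all beta-like cells was 1.00.

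**Figure D5:**
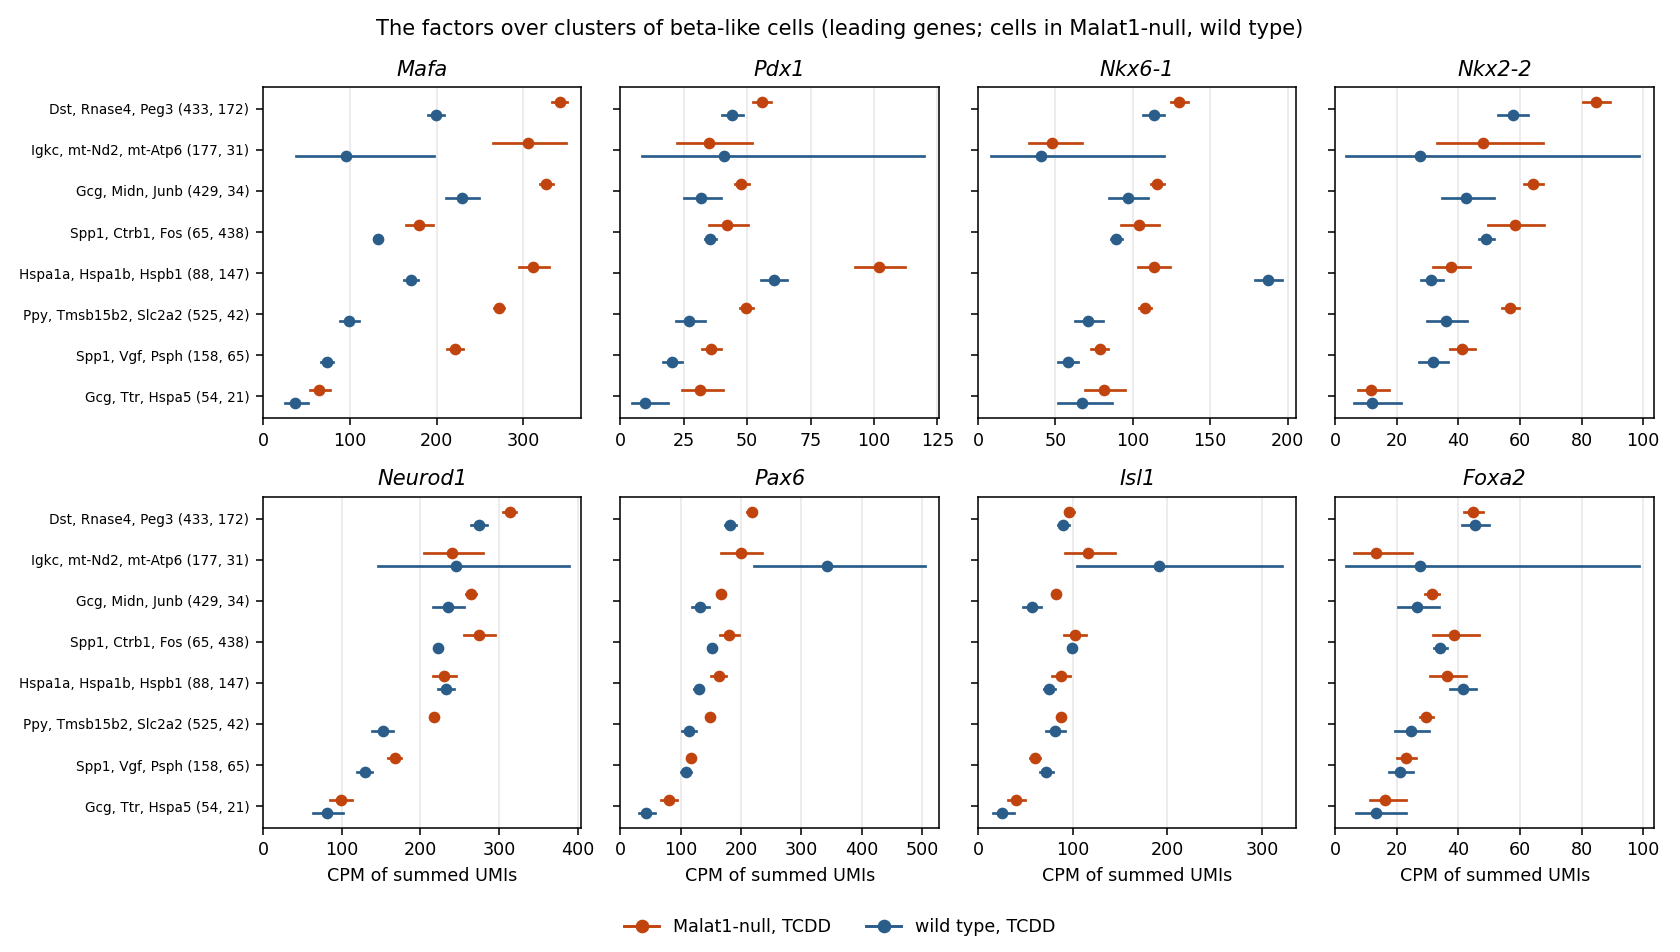
Level of each factor (CPM of summed UMIs) in the 8 beta-like clusters with at least 20 cells in each library, Malat1-null points drawn above wild-type points, with 95% counting intervals; row labels give the 3 leading genes and the numbers of Malat1-null and wild-type cells. Mafa is higher in Malat1-null in 8 of 8 clusters, and Nkx6-1 is lower in the cluster led by Hspa1a, at 113.5 against 187.3 CPM.

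Cells of other kinds, or their RNA, were not equally present in the 2 beta-like groups. Summed over their marker lists, PP markers came to 1921 CPM in Malat1-null and 185.4 CPM in wild type (2 of 5 and 2 of 5 markers at 20 CPM or more). Alpha markers came to 585.1 and 309.5 CPM (4 of 5 and 3 of 5), delta markers to 187.1 and 4.92 CPM (2 of 5 and 0 of 5), ductal markers to 338.5 and 847.5 CPM (2 of 6 and 2 of 6), and acinar markers to 28.9 and 180.1 CPM (0 of 8 and 2 of 8). The part of these markers in the ratios of the members was not tested.

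Mafa was higher in Malat1-null in each of 5 depth bins. Beta-like cells were split at 5000, 20000, 50000 and 100000 UMIs, and from the shallowest bin to the deepest its log2 ratio was 1.73, 2.05, 0.82, 0.99 and 1.22. In the shallowest bin this rested on 6 wild-type Mafa UMIs in 35 cells, with a ratio of 3.31 (1.45 to 9.33). In the second bin it rested on 22 wild-type Mafa UMIs in 22 cells, with a ratio of 4.15 (2.70 to 6.68). Nkx6-1 changed direction over these bins, with log2 ratios of 0.16, -1.19, -0.31, 0.11 and 0.42, and the second bin held 22 wild-type cells. Pdx1 gave 0.39, -0.45, 0.16, 0.43 and 0.42, and Nkx2-2 gave 0.39, 1.08, 0.29, 0.40 and 0.56.

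In the other hormone classes no member was called under TMM scaling, and 1 was under total-count scaling. In alpha-like cells, 0 of the 5 members that passed the minimums were called, where 2.02% of 4696 genes were higher and 2.43% lower. The nearest was Neurod1, at 637.7 CPM in Malat1-null (753 UMIs) and 440.9 CPM in wild type (338 UMIs), a ratio of 1.45 (1.27 to 1.65). Under total-count scaling, which moved the median log2 ratio of all genes in alpha-like cells to 0.19 where TMM scaling gave 0.07, its ratio was 1.57 (1.38 to 1.79) and met the rule. In delta-like cells 0 of 5 were called (2.14% of 3730 genes higher, 1.45% lower), and in PP-like cells 0 of 6 (2.01% of 3538 genes higher, 1.61% lower). Isl1 in delta-like cells had a ratio of 1.04 (0.888 to 1.22) and in PP-like cells 0.808 (0.640 to 1.02). Pdx1 in delta-like cells had a ratio of 0.795 (0.491 to 1.30).

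Among other transcription factors of the islet lineage, 50 were found in the files and 26 passed the minimums in beta-like cells. Of these, 2 were called higher (Id3 and Hes1) and 1 lower (Etv1), with a median log2 ratio of 0.12. Id3, an inhibitor of basic helix-loop-helix proteins, stood at 19.9 CPM in Malat1-null and 6.84 CPM in wild type. Hes1, a Notch target and repressor, stood at 26.6 and 14.8 CPM, and Etv1, an ETS factor, at 21.3 and 33.9 CPM. Id3 was called higher in all 4 hormone classes, with 536.1 and 327.4 CPM in alpha-like, 153.2 and 27.1 CPM in delta-like, and 499.3 and 199.4 CPM in PP-like cells. The chromatin partner Ldb1, which binds Isl1, had a log2 ratio of 0.09, and Mlxipl (ChREBP), a glucose-sensing factor, had one of 0.40.

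Of 27 islet genes on which these factors are known to act, 24 passed the minimums in beta-like cells. There 9 were called higher in Malat1-null and 1 lower, with a median log2 ratio of 0.37, beside 2.05% of all genes higher, 2.52% lower and a median of 0.03. Under total-count scaling 8 of 24 were called higher, without Slc30a8, and 1 lower, with a median of 0.19. Slc2a2, Ucn3, Ins1, Ins2, Iapp, G6pc2, Ero1lb, Nptx2 and Glp1r of this list are also the markers that named the beta-like class. Gcg, Sst, Ppy, Pyy and Rbp4 are markers that named other classes. Of the genes called higher, only Slc30a8 and Sytl4 are in no marker list, so these counts beside all genes are a description. Among the 9 were Slc2a2, the beta cell glucose transporter, at 100.4 CPM in Malat1-null and 36.5 CPM in wild type, and Slc30a8, the granule zinc transporter, with a log2 ratio of 0.72. Ucn3, a peptide of mature beta cells, stood at 135.1 and 77.4 CPM, and Sytl4, a granule-docking protein, had a log2 ratio of 0.81. The other 5 of the 9 were Gcg, Ppy, Pyy, Sst and Rbp4, of which Gcg, Ppy, Pyy and Sst are hormones of other islet cells and Rbp4 is a delta marker here. Chgb, a granule protein, was the gene called lower, at 700.3 and 1353 CPM. Ins1 and Ins2 were not called, with log2 ratios of 0.35 and 0.36, and neither was Iapp at -0.14.

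The profile of each member over 20 class-by-library levels was compared with those of 10363 genes by Pearson correlation of log2 CPM. These values are descriptions over classes that share 2 libraries. Nearest to Mafa were Fam151a (0.972), Ucn3 (0.970) and Prss53 (0.969), and nearest to Pdx1 were Mlxipl (0.970), Cntn1 and Flrt1 (0.937 each). Nkx6-1 had the least close neighbours, Adh1 (0.900), Ddc (0.879) and Ociad2 (0.845). Neurod1 lay nearest to Grk3 (0.990), Syt13 (0.980) and Snap25 (0.979), and Pax6 to Rimbp2 (0.991), Snap25 (0.990) and Slc7a14 (0.989). For Isl1 the nearest were Pcsk2os1 (0.984), Gm45486 (0.983) and Kcnk16 (0.983). For Nkx2-2 they were 1700023F06Rik, Arfgef3 and Gdap1 (0.964, 0.964 and 0.963), and for Foxa2 Smim22 (0.978), Atp6v0e2 (0.978) and 0610040J01Rik (0.967).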

How the data were processed

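Single-cell RNA of cultured mouse islets was made with 10x Genomics 3′ v3 chemistry, per the labels' protocols. The deposited files hold raw UMI counts for 32285 genes and 6794880 barcodes, with no barcode filter. The counts came from Cell Ranger 4, per the file headers, while the submitters' processing notes name Cell Ranger 2.1.0 and mm10; which version applies was not settled. Barcodes with at least 1000 UMIs were kept. They were clustered in scanpy 1.11.5 (2000 variable genes, 30 principal components, 15 neighbours, Leiden resolution 1) without the members, the other listed factors, Malat1, sex-linked and mitochondrial genes. Clusters were named from 14 marker lists where the score reached 0.6. Clusters with insulin beside another class stayed unnamed, and a hormone cell had to be led by its own hormone, with Ins2 under 5% of UMIs outside beta; limits chosen once an earlier clustering was known. No doublet caller was run, so these rules stand in for one.

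UMIs were summed per class and library and scaled with TMM factors, checked against edgeR 4.0.16. Intervals are exact (Poisson for levels, conditional binomial for ratios, Clopper-Pearson for shares), at 95%, and cover counting error only. The call rule was run on simulated counts drawn from the wild-type beta-like sums with counting error alone. That run cannot show how the rule behaves under differences between mice, dispersions, runs or cell make-up. With 1 library per genotype no p-value was computed. Coordinates come from GENCODE M21, which held 32158 of the gene IDs. Of the 51 symbols listed for other transcription factors 50 were found, all but Myt3, and of the 27 target genes 27. Named genes are the members, these 2 lists, the 3 genes nearest each member in profile, Malat1, cluster-leading genes and genes that overlap a member. Members and lists were chosen with earlier results of these data known. Alternatives covered UMI minimums, scaling, clustering, naming, cell weighting and low-count filters.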

Additional observations from a re-analysis of the deposited data

How the results depend on the processing

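Mafa was called higher in Malat1-null beta-like cells under 14 of 14 alternatives, with log2 ratios from 0.82 to 1.03, and under each of these no other member was called. Pdx1 (0.22 to 0.50), Nkx2-2 (0.27 to 0.47) and Pax6 (0.01 to 0.21) kept their direction in 14 of 14. Under total-count scaling Nkx6-1 (-0.089) and Neurod1 (-0.021) changed sign, and with every cell weighted alike Nkx6-1 did (-0.036). Isl1 ranged from -0.21 to 0.04 and Foxa2 from -0.25 to 0.05. The cause of these shifts was not tested. Counts of genes called over the whole table moved more, from 176 higher and 216 lower. They were 76 and 424 with total-count scaling, 276 and 375 with hormone, mitochondrial and Malat1 UMIs left out of the library size, 503 and 824 with no filter on low counts, and 32 and 32 at 50 CPM or more. By the 1.5-fold limit alone, which left 176 and 216 on summed UMIs, 302 were higher and 241 lower with cells weighted alike, and 364 and 189 with clusters weighted alike in both libraries. In alpha-like cells total-count scaling called 1 member higher (Neurod1) where 0 were called, and no call of a member changed in delta-like or PP-like cells under that scaling or with hormone UMIs left out. The cluster weighting, the 1.5-fold limit on summed UMIs, the scalings of the 3 rarer classes and the alternative without the shallow beta-like cluster were chosen after seeing the data. No paired analysis was possible because each genotype has 1 library. The few alpha-like, delta-like and PP-like cells limit what could be called there.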

Other observations

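Genes that overlap a member in the annotation were looked up for each of the 8. Plut, the non-coding RNA gene on the strand opposite to Pdx1, stood at 12.5 CPM in Malat1-null beta-like cells (1172 UMIs) and 3.70 CPM in wild-type ones (233 UMIs), a ratio of 3.37 (2.93 to 3.90), which met the call rule where Pdx1 at 1.32 did not. Pax6os1, on the strand opposite to Pax6, stood at 5.90 and 4.63 CPM and was not called. Cerkl, on the strand of Neurod1, stood at 10.9 and 11.8 CPM and was not called. Nkx2-2os, opposite to Nkx2-2, did not pass the minimums.

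Some of the other listed transcription factors were called in the rarer hormone cells, and these were picked after their values were seen. Calls over all genes were 2.02% higher and 2.43% lower in alpha-like cells, 2.14% and 1.45% in delta-like cells and 2.01% and 1.61% in PP-like cells. Id2, an inhibitor of basic helix-loop-helix factors, stood at 132.1 CPM in Malat1-null and 40.4 CPM in wild-type alpha-like cells, at 373.0 and 198.2 CPM in delta-like cells and at 167.9 and 61.6 CPM in PP-like cells, and was called higher in each. Id1 was called higher in delta-like and PP-like cells, with ratios of 9.53 (3.55 to 36.0) from 68 and 4 UMIs and 27.9 (9.26 to 137.3) from 102 and 3 UMIs. It was not called in alpha-like cells. In alpha-like cells St18 and Sox4 were called lower, with ratios of 0.608 and 0.362. Under total-count scaling St18 was not called. Each of these values rests on 1 library per genotype and on 72 cells or fewer.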
